A study of Drosophila melanogaster with 2 samples.

Results

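The genes for the proteins of the nuclear pore were examined in chromatin immunoprecipitation followed by sequencing (ChIP-seq) of *Drosophila melanogaster* embryos. The members were chosen by name from the Ensembl annotation, with earlier results of these data known. They were the protein-coding genes whose symbol is Nup and a digit (21 genes), together with Megator, *mbo*, *Ndc1*, *Gle1* and *Elys*. That gave 26 of 13945 protein-coding genes on the main chromosome arms. Megator is called *Mgtor* in the annotation and carries the older symbol Mtor, so it was matched by its FlyBase identifier, FBgn0013756. The study tagged *her* (hermaphrodite), a zinc-finger gene of the sex determination pathway, with GFP at the C-terminus, and used an antibody against GFP on whole embryos of both sexes aged 0 to 24 hours. Both biological replicates came from that 1 transgenic line and formed the only group, so there was no contrast between conditions and no test between groups. Embryos of all stages in that window and all their tissues were pooled, so no stage or cell type can be named for a region. The read depth of the libraries is unknown, and no interval that needs it was computed. No untagged sample was analysed here.

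The nuclear pore is the channel through the nuclear envelope by which proteins and RNA move between nucleus and cytoplasm. Its scaffold is made of a Y-shaped complex on both faces and an inner ring between them, nucleoporins with phenylalanine-glycine repeats fill the central channel, and filaments on the cytoplasmic side and a basket on the nuclear side receive cargo. Several nucleoporins of fly cells are also known to contact chromatin away from the pore. The measurements below concern the DNA of the nucleoporin genes and say nothing of the nucleoporin proteins.

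The tagged protein was recovered near the start of 13 nuclear pore genes, and at 8 of them the summit lay nearer to another gene's start. A gene was called bound when a summit of the thresholded list, 3930 regions that passed the authors' irreproducible discovery rate (IDR) step, lay within 1000 bp of any of its transcription start sites (TSSs). By that rule 13 of 26 nuclear pore genes were called, against 23.3% of all protein-coding genes. When each summit counted only for the gene with the nearest TSS, 5 of 26 members (19.2%) were called, against 16.9% of all genes, and the share at nuclear pore genes was then near the background. Within 200 bp of a TSS the count was 8 of 26 (30.8%), against 16.2%. No test was run on these shares, since genes of 1 experiment are not replicates.

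**Figure D1:**
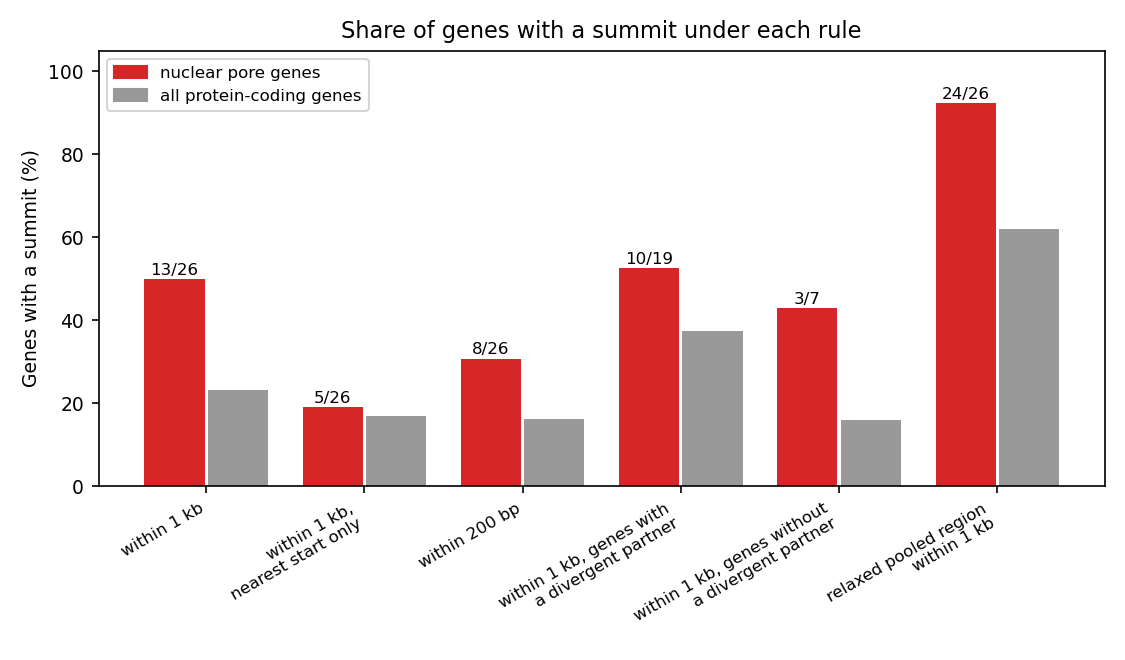
Share of genes with a summit (%) under 6 rules, for the nuclear pore genes (red, with the number of genes above each bar) and for all protein-coding genes (grey). Under the 1 kb rule 13 of 26 pore genes and 23.3% of all genes were called, and under the nearest-start rule 19.2% and 16.9%.

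The strength of a region is given by the signal that the authors deposited, which has no stated scale and served to order the regions within a list. Signals were also compared between the replicates as a ratio, though the scales of those lists may differ. Over the 13 bound members the strongest thresholded summit had a median signal of 151 and a range of 95.3 to 3283. Over all 3254 bound protein-coding genes the median was 146 and the range 90.8 to 9479. The 13 members thus spanned most of the list, from rank 17 for *Nup50* to rank 3626 for *Nup107*, and their median lay close to that of other bound genes. The thresholded regions were the 3930 strongest of the pooled list of 30000, so a call at a gene was in effect a signal of at least 90.8 in the pooled replicates. *Nup62* fell just outside, with a pooled signal of 90.7 at rank 3939.

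**Figure D2:**
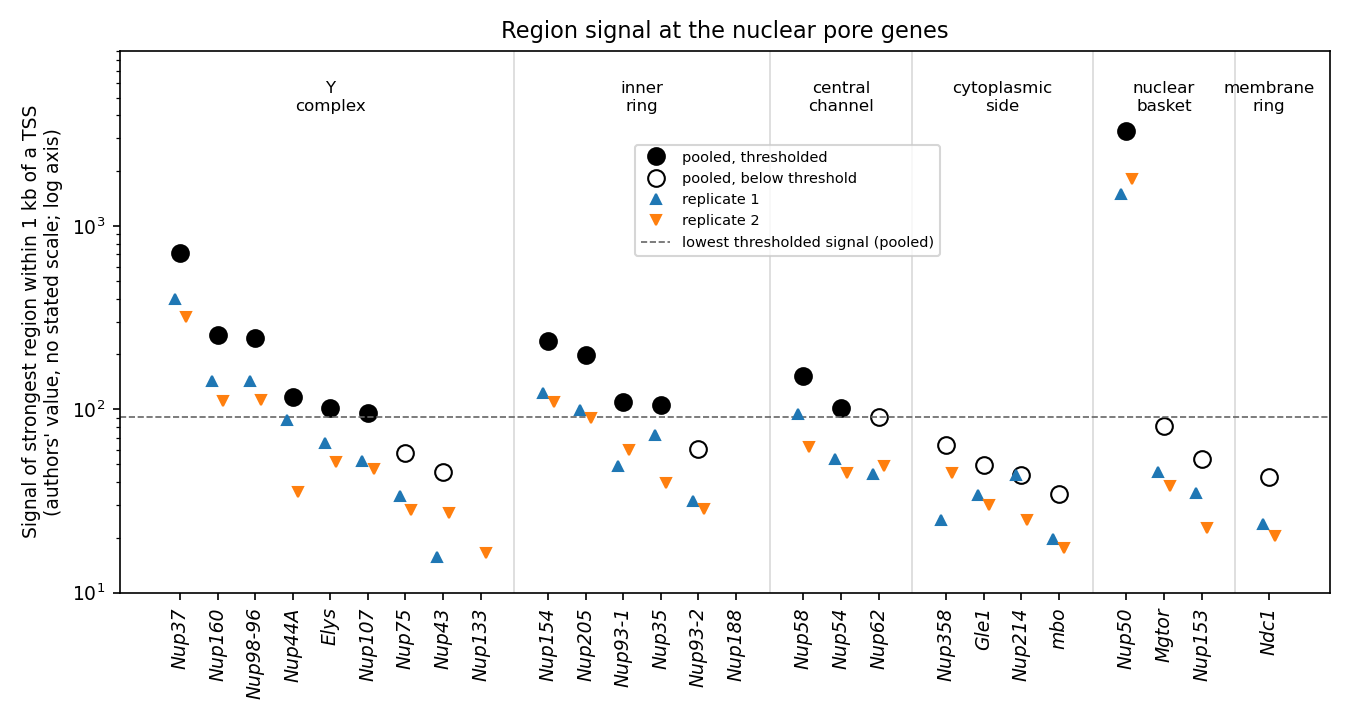
Signal of the strongest region within 1 kb of a TSS (log axis) for each nuclear pore gene, by position in the pore, in the pooled list (circles, filled where the region is thresholded) and in each replicate (triangles). *Nup50* stands highest at 3283, the 4 genes of the cytoplasmic side all lie below the threshold, and *Nup188* has no point because no region lay within 1 kb.

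The Y complex, the scaffold module that is built into the pore early, had 6 of 9 members bound (66.7%), against 23.3% of all protein-coding genes. The strongest was *Nup37* (FBgn0039301, 3R, 25247658 to 25249100, plus strand). Its region spanned 25247349 to 25247702 with a signal of 399.8 in replicate 1, 320.1 in replicate 2 and 712 in the pooled list, at ranks 118, 130 and 125. All 3 ranks placed it near the top of the lists. The summit at 25247523 was 135 bp upstream of the *Nup37* start but 9 bp upstream of the start of *RpS27*, a gene for a protein of the small ribosomal subunit that is transcribed in the opposite direction. The start of the noncoding *sisRNA:CR46364* lay 101 bp from it. *Nup160* (FBgn0262647, 2L, 11123777 to 11129335, plus strand), an arm of the Y, had a region from 11123648 to 11123826 with signals of 143 in replicate 1, 111 in replicate 2 and 255 in the pooled list. Here the summit, at 11123753, was nearest to the member itself. It lay 24 bp upstream of *Nup160* and 186 bp upstream of *Csl4*, a subunit of the RNA exosome on the other strand. *Nup107* (FBgn0027868, 2L, 10733293 to 10736071, minus strand), a stem protein, had the weakest bound summit of the group, with signals of 52.2 in replicate 1, 47.0 in replicate 2 and 95.3 in the pooled list. It had no divergent neighbour within 1 kb, the nearest other start being that of *Vha16-5* on the same strand, 929 bp from the summit. The summit at 10736114 lay 43 bp upstream of its own start.

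These 4 stretches of sequence from the RefSeq dm6 assembly show where summits fell at member promoters with and without a divergent neighbour. The first 3 run from the base after the neighbour's start to the base before the member's start, and the last gives the 100 bases before the start of *Nup107*. Each is written 5′ to 3′ in the direction of the member, with the 11 bases centred on the summit in capitals.
*RpS27* to *Nup37* (chr3R:25247515-25247657, plus strand): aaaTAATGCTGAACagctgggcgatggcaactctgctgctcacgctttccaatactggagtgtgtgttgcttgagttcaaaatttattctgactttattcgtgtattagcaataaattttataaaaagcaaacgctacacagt
*Csl4* to *Nup160* (chr2L:11123568-11123776, plus strand): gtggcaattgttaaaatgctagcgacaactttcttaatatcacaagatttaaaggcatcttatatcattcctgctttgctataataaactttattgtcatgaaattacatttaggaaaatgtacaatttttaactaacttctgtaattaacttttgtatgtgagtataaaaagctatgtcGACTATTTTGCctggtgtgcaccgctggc
*pico* to *Nup205* (chrX:19852060-19852213, plus strand): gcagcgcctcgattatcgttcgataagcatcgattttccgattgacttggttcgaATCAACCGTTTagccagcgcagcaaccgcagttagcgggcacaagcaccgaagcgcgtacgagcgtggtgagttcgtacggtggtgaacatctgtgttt
*Nup107* (upstream sequence, chr2L:10736072-10736171, minus strand): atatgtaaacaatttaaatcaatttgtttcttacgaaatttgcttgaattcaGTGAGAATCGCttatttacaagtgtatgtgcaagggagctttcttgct
The capitals sit at the left end for *Nup37*, at the right end for *Nup160* and in between for *Nup205*. In the *Nup37* stretch the sequence CAGCTG overlaps the capitals, and in the *Nup160* stretch TATAAA lies a short way to their left.

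The Y complex genes *Nup98-96*, *Elys* and *Nup44A* were bound as well. *Nup98-96* (FBgn0039120, 3R, 23774225 to 23781621, minus strand), whose precursor is cut into a pair of nucleoporins, was the only member with 2 thresholded summits. The stronger, at 23781588, lay 33 bp inside the gene in its 5′ UTR, with signals of 142 in replicate 1, 112 in replicate 2 and 245 in the pooled list. The weaker, at 23781787, lay 166 bp upstream of the gene and 22 bp inside *mbc*, which encodes an activator of Rac in the myoblast fusion pathway, with signals of 91.1, 67.6 and 139 in the same order. The starts of *Nup98-96* and *mbc* are 144 bp apart, so the pair carried a summit just inside each gene. *Elys*, which ties the Y complex to chromatin after mitosis (FBgn0031052, X, 19652305 to 19659407, plus strand), had signals of 65.1 in replicate 1, 51.3 in replicate 2 and 101 in the pooled list. Its summit at 19652156 was 149 bp upstream of *Elys* and 113 bp inside the divergent gene *Ranbp21*, itself a transport receptor gene, in that gene's 5′ UTR. *Nup44A*, the fly Seh1 gene (FBgn0033247, 2R, 7988462 to 7991283, plus strand), lies inside the larger gene *ACC* on the other strand. Its summit at 7987945, in an *ACC* intron 517 bp upstream of *Nup44A*, had signals of 87.4 in replicate 1, 31.0 in replicate 2 and 116 in the pooled list. The replicates stood far apart there, at ranks 1559 and 6892. Another region, 99 bp upstream of a *Nup44A* start, had a pooled signal of 72.5, and in replicate 2 it was the stronger of the pair, with 35.6. The remaining Y complex genes were *Nup75*, *Nup43* and *Nup133*, with pooled signals of 58.0 and 45.4 for the first pair. *Nup75* (FBgn0034310) had 33.5 in replicate 1 and 28.3 in replicate 2, and *Nup43* (FBgn0038609) 15.7 and 27.2. The *Nup43* values came from different regions, 130 bp inside the gene in replicate 1 and 152 bp upstream in replicate 2. *Nup133* had no pooled region within 1 kb and a single weak one in replicate 2, with a signal of 16.4 at rank 19905.

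The inner ring, which anchors the channel proteins and touches the membrane, had 4 of 6 members bound, against 23.3% of all protein-coding genes. All 4 summits were nearer to a divergent neighbour, while the strongest summit was nearer to another gene at 1005 of the 3254 bound genes. *Nup154* (FBgn0021761, 2L, 11004820 to 11010921, plus strand) had signals of 122 in replicate 1, 110.1 in replicate 2 and 236 in the pooled list. That summit, at 11004144, was 676 bp upstream of *Nup154* and 9 bp inside *RpL9*, a gene of the large ribosomal subunit. *Nup154* was thus called through a summit at the start of a ribosomal protein gene. The *Nup37* summit was also nearest to such a start, but it lay between starts only 144 bp apart. *Nup205* (FBgn0031078, X, 19852214 to 19859379, plus strand), a large scaffold protein, had signals of 99.1, 89.6 and 197 for replicate 1, replicate 2 and the pooled list. The summit at 19852120 lay between both starts, 94 bp upstream of *Nup205* and 61 bp upstream of *pico*, an adaptor of the actin cytoskeleton. *Nup93-1* (FBgn0027537, X, 13822826 to 13825910, plus strand), a linker of the ring, had a summit at 13822277, 549 bp upstream and 30 bp inside the chloride channel gene *Clic*, with signals of 49.2, 60.2 and 109. *Nup35* (FBgn0030943, X, 18648182 to 18649489, plus strand), which contacts the membrane, was the bound member whose summit lay farthest away. The summit at 18647202 was 980 bp upstream, inside the coding sequence of *Rip11*, an effector of the small GTPase Rab11, with signals of 72.3, 33.5 and 106. Another *Nup35* region 50 bp upstream of its own start had a pooled signal of 48.3, below the threshold. In replicate 2 that region was the stronger of the pair, with 39.5 at rank 4675 against 33.5 at rank 6076 for the summit in *Rip11*.

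**Figure D3:**
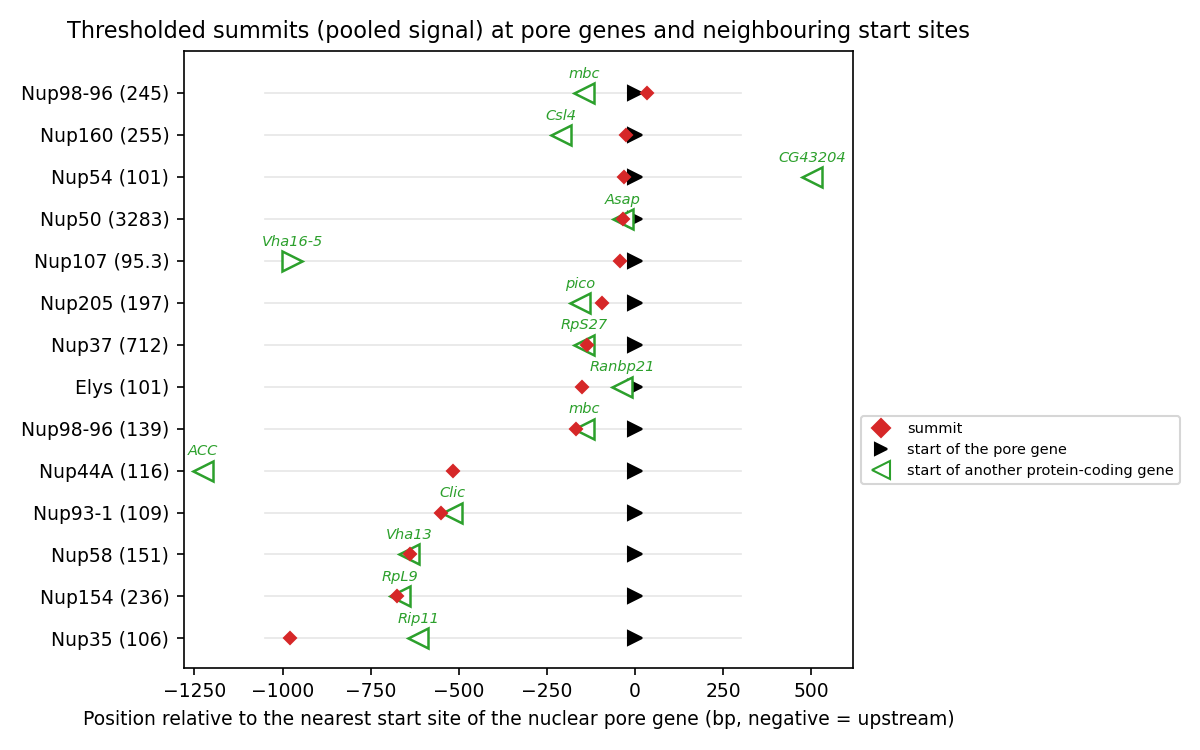
Positions of the 14 thresholded summits (red diamonds, pooled signal in brackets) relative to the nearest start of the nuclear pore gene (black, in bp, negative is upstream), with starts of other protein-coding genes within 1 kb of the summit (green). The summits of *Nup37*, *Nup50*, *Nup58* and *Nup154* coincide with a green start, and those of *Nup160*, *Nup54* and *Nup107* sit beside the black one.

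The central channel had 2 of 3 members bound, against 23.3% of all protein-coding genes, by summits with signals of 151 and 101. *Nup58* (FBgn0038722, 3R, 19645026 to 19646906, plus strand) had signals of 94.5 in replicate 1, 62.0 in replicate 2 and 151 in the pooled list. Its summit at 19644387 was 639 bp upstream and lay 1 bp from the start of *Vha13*, a subunit gene of the proton pump V-ATPase on the other strand. A separate region 28 bp inside *Nup58* had a pooled signal of 43.6 and was not thresholded. *Nup54* (FBgn0033737, 2R, 12428449 to 12431099, minus strand) had signals of 53.4, 45.2 and 101 for replicate 1, replicate 2 and the pooled list. Its summit, at 12431130, lay 31 bp upstream of its own start, which was the nearest start, and within the 3′ UTR of *CG43204*, an overlapping gene on the other strand. *Nup62* (FBgn0034118, 2R, 16344377 to 16345828, plus strand), the third channel protein, had a region 39 bp upstream of a start that ranked 5051 in replicate 1 and 3304 in replicate 2, with signals of 44.2 and 49.0. It was the unbound member with the highest pooled signal, 90.7.

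The nuclear basket had 1 of 3 members bound (33.3%), near the 23.3% of all protein-coding genes, and that member was the strongest of the whole group. *Nup50* (FBgn0033264, 2R, 8123036 to 8125058, plus strand), a basket protein that takes part in nuclear import, had the strongest region of all members, from 8122669 to 8123309. Its signal was 1484 in replicate 1, 1803 in replicate 2 and 3283 in the pooled list, at ranks 17, 19 and 17. Only 0.407% of the thresholded regions ranked higher. The summit at 8123003 lay in the 35 bp between the starts of *Nup50* and *Asap*, a gene for an Arf GTPase-activating protein, 33 bp upstream of the first and 2 bp upstream of the second. A region between starts so close cannot be assigned to either gene. *Mgtor* (FBgn0013756, 2R, 11852617 to 11861202, plus strand), the long coiled-coil protein of the basket, had a region 26 bp upstream of its start with signals of 45.4 in replicate 1, 38.2 in replicate 2 and 81.4 in the pooled list, at rank 4613 and below the threshold. *Nup153* (FBgn0061200, X, 16599241 to 16610459, plus strand), which holds the basket to the pore, had a pooled signal of 53.9 at a summit 712 bp upstream of its start.

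None of the 4 genes of the cytoplasmic side was bound, against 23.3% of all protein-coding genes, a share at which about 1 of 4 would be called. *Nup358* (FBgn0039302, 3R), the filament protein that binds Ran, had a pooled signal of 63.7 with the summit 6 bp upstream of its start, and in replicate 2 that summit ranked 3856 with a signal of 44.7. In replicate 1 the strongest region within 1 kb lay 649 bp inside the gene, with a signal of 25.0, and a weaker region 75 bp inside it had 17.8 at rank 19485. *Gle1* (FBgn0033316, 2R), an mRNA export factor, *Nup214* (FBgn0010660, 2R) and its partner *mbo* (FBgn0026207, 3R) had pooled signals of 49.9, 44.1 and 34.7. Their strongest regions had signals of 34.2, 44.1 and 19.6 in replicate 1 and of 29.9, 24.9 and 17.6 in replicate 2. For *Gle1* and *Nup214* these were different regions in the replicates. That of *Gle1* lay 644 bp upstream in replicate 1 and 535 bp inside the gene in replicate 2. That of *Nup214* lay 514 bp upstream in replicate 1 and 240 bp inside the gene in replicate 2. *Ndc1* (FBgn0039125, 3R), the transmembrane protein of the list, had 23.6 in replicate 1, 20.3 in replicate 2 and 43.0 in the pooled list.

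Over the 13 unbound members the pooled list held a region within 1 kb of 11, with signals of 34.7 to 90.7 and a median of 53.9. The pooled list reached down to a signal of 21.1 and covered 62.1% of all protein-coding genes, so a region in it is weak evidence of binding. It covered 24 of 26 members, all but *Nup133* and *Nup188*, and the lists of replicate 1 and replicate 2 covered 24 and 25, against 63.2% and 62.9% of all genes. *Nup188* (FBgn0033766, 2R, 12679967 to 12686179, minus strand), a scaffold protein of the inner ring, was the only member with no region within 1 kb in any of the 3 relaxed lists. *Nup93-2*, the inner ring gene related to *Nup93-1*, had signals of 31.6 in replicate 1, 28.7 in replicate 2 and 61.0 in the pooled list, where its summit lay 20 bp upstream. Beyond the 1 kb limit, the nearest thresholded summit to an unbound member was 1362 bp from *Ndc1* and the next were 1497 bp from *Nup214* and 1825 bp from *Nup358*. The last of these was the *RpS27* and *Nup37* summit, since *Nup37* and *Nup358* are neighbours on the same strand.

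Most members had a divergent neighbour within 1 kb. A protein-coding gene started within 1 kb upstream in the opposite direction at 19 of 26 nuclear pore genes (73.1%), against 4841 of 13945 protein-coding genes (34.7%). The gap between starts ran from 26 bp at *Nup153* and *CG9784* to 640 bp at *Nup58* and *Vha13*. Of those 19 members 10 were bound (52.6%), against 37.4% of all genes with such a partner. Of the 7 members without one 3 were bound (42.9%), *Nup107*, *Nup44A* and *Nup54*, against 15.9% of all such genes. With summits given only to the nearest start, 2 of the 19 members with a partner were called (10.5%), *Nup160* and *Nup98-96*, against 21.2% of all genes with a partner. These groups are small, and the part that divergent neighbours play in the count of 13 was not tested beyond these values.

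The 13 bound members had their strongest summit more often beyond 500 bp, and nearer to another gene's start, than bound genes at large. The median distance from summit to start was 135 bp over the 13 bound members and 115 bp over the 3254 bound genes, and it was at most 200 bp at 61.5% of the first and 64.0% of the second. More than 500 bp lay between summit and start at 5 of 13 members (38.5%), against 15.9% of all bound genes, upstream or downstream. The 5 were *Nup44A*, *Nup93-1*, *Nup58*, *Nup154* and *Nup35*, each with the summit upstream. The summit was upstream at 12 of 13 members and at 75.7% of bound genes. It was nearest to the gene's own start at 5 of 13 members (38.5%) and at 69.1% of bound genes. These shares were not tested, and bound genes with a divergent partner, which most members have, were not compared apart.

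The replicates stood farthest apart at *Nup44A* and *Nup35*. Every one of the 14 thresholded summits had a region in both replicates with its summit within 200 bp, 4 to 129 bp apart between replicates. The ratio of the signal in replicate 1 to that in replicate 2 ran from 0.817 at *Nup93-1* to 2.82 at *Nup44A*, with a median of 1.26. Over the 3914 thresholded regions matched in both replicates the median was 1.17, and the ratios at percentiles 5 and 95 were 0.684 and 2.11. *Nup44A* and *Nup35* (2.16) lay above that range. The signal of replicate 1 was higher at 12 of the 14 summits and at 2783 of the 3914, and *Nup50* and *Nup93-1* were the members with the higher signal in replicate 2. By rank, *Nup50* stood higher in replicate 1 (17 against 19). *Nup107* (3869 against 3549), *Nup154* (810 against 754) and *Nup205* (1234 against 1104) stood higher in replicate 2, as *Nup93-1* did. Thresholded regions had passed a step that weighs agreement between these replicates, and both replicates share the additional input taken to be the control, so their agreement is a description.

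**Figure D4:**
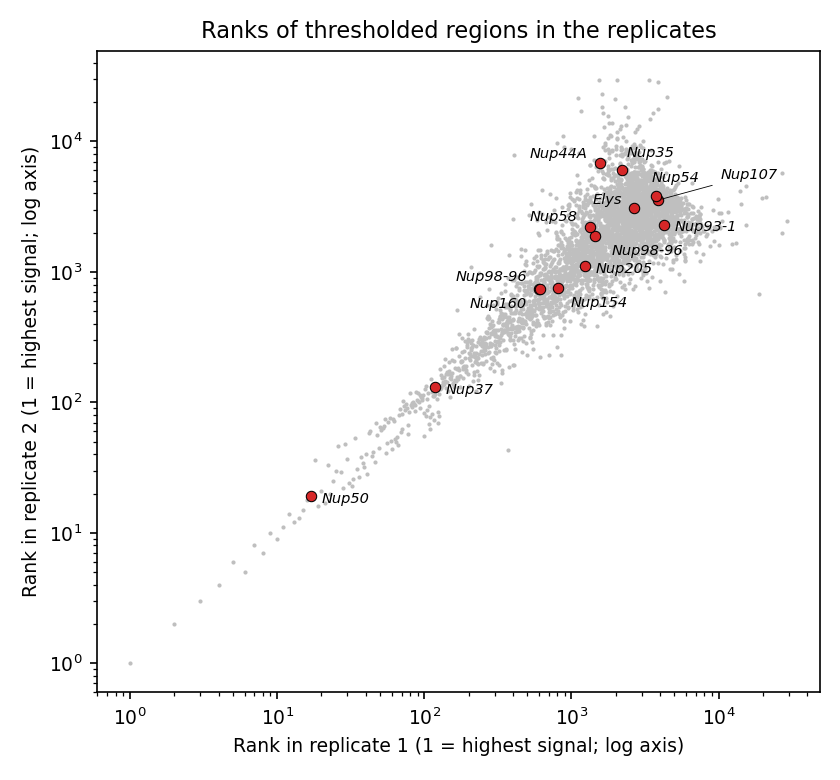
Rank of each thresholded region in replicate 1 and in replicate 2 (log axes, 1 is the highest signal) for the 3914 regions matched in both (grey) and the 14 at nuclear pore genes (red). *Nup50* and *Nup37* lie toward the narrow lower left end of the cloud, where signals are highest. *Nup44A* and *Nup35* have a larger rank number in replicate 2 than in replicate 1.

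Short sequences known from fly core promoters were searched on both strands, in the 101 bp centred on each summit and in the 300 bp from 250 bp before to 50 bp after the most upstream start of each gene. TATCGATA, the DNA replication-related element (DRE) bound by the factor Dref, was in the promoter window of 6 of 26 members (23.1%), against 9.36% of all protein-coding genes and 15.2% of bound ones. It was in 3 bound and 3 unbound members. Among the 14 member summits it was within reach of 2, those of *Nup50* and *Nup54* (14.3%, against 3.64% of all 3930 summits). The 14 were selected to lie within 1 kb of a start and the 3930 were not, so the summit shares are of unlike sets. *Nup58* held a DRE close to its own start, in the 60 bases shown here 5′ to 3′ with the DRE in capitals.
*Nup58* (chr3R:19644966-19645025, plus strand): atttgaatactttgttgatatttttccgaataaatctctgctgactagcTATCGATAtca
The thresholded summit that called *Nup58* lay at *Vha13*, more than 500 bp to the left of this stretch, while the weaker region 28 bp inside *Nup58* lay beside it. CGATAG overlaps the DRE where a G follows or a C precedes it, and was in 8 of 26 promoter windows (30.8%, against 19.5% of all genes and 29.4% of bound ones) and at the same 2 summits (14.3%, against 9.31% of all summits). GGTCACACT, the core of Motif 1, was in 4 promoter windows (15.4%, against 6.05% of all genes and 9.37% of bound ones), those of *Ndc1*, *Nup43*, *Nup93-2* and *Nup160*, and at 0 of 14 summits, against 1.70% of all summits. TATAAA was in 15 promoter windows (57.7%, against 45.8% of all genes and 41.1% of bound ones), and CAGCTG in 4 (15.4%, against 17.7% and 22.3%). At the summits TATAAA was in 2 of 14 (14.3%, against 10.3% of all summits) and CAGCTG in 1 (7.14%, against 6.51%). CATCNCTA, part of Motif 7, was in 3 windows (11.5%, against 6.42% and 11.6%) and CACGTG in 2 (7.69%, against 4.20% and 5.47%). Both were at 0 of 14 summits, against 2.88% and 1.48% of all summits. GAGAGAG was in 0 of 26 promoter windows and at 0 of 14 summits, against 5.87% of promoters and 3.16% of summits. A match is only a run of letters, and the factors were not measured. The G and C content of the 14 summit windows had a median of 42.1%, close to the 41.6% of all thresholded summits.

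Genes that work with the pore were called at 22 of 49 (44.9%), against 23.3% of all protein-coding genes. The lists ran from 2 of 13 for mRNA export to 6 of 10 for the lamina and the nuclear membranes. Every list but mRNA export lay above 23.3%, though the pore genes outside the rule only just did. Of 4 pore genes outside the rule, *Sec13*, *Rae1*, *Gp210* and *Aladin*, only *Sec13* was bound, with a signal of 96.9 at a summit nearer to *ATPsynCF6*. Of 16 importins and exportins, the receptors that carry cargo through the channel, 9 were bound with a median signal of 123. The strongest were *Kap-alpha3* (signal 299), *msk* (283), *Karybeta3* (242) and *Tnpo-SR* (164), and the first 3 had their summit nearest to their own start. *emb*, the exportin Crm1, had a signal of 123 with the summit 14 bp inside the gene. *Ranbp21* was bound by the same summit as *Elys*. Of 7 genes of the Ran cycle, which gives transport its direction, 4 were bound with a median signal of 212. *Rcc1*, the chromatin-bound exchange factor for Ran, had a signal of 1334 at rank 58 with the summit 42 bp inside the gene. *RanGAP*, which acts on the cytoplasmic side, had 269.7 at a summit nearer to *Hs2st*, *RanBP3* had 155 and *Ran* 97.4. Of 13 mRNA export genes 2 were bound (15.4%, below the 23.3% of all genes), *Hel25E* with 185 and *xmas* with 93.7, and both summits were nearer to another gene's start. The export receptor *sbr* and the 5 listed genes of the THO complex, *tho2*, *Hpr1*, *thoc5*, *thoc6* and *thoc7*, were not called. Of 10 genes of the lamina and the nuclear membranes 6 were bound with a median signal of 192, led by *Msp300* (491), *baf* (429), *MAN1* (199) and *Lam* (185). Over all lists 44.9% were called, with a median signal of 159 and *Nxt1*, a member of 2 lists, counted once. By the 1 kb rule that share was close to the 13 of 26 of the nuclear pore genes. A share above that of all protein-coding genes under that rule was thus not particular to the nuclear pore genes. The nearest-start rule, which called 5 of 26 pore genes (19.2%), was not counted over these lists, so the groups were not compared by it. These lists were not tested against the background. The *Hel25E* summit is the *Lam* summit, so the pair is counted through 1 region.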

How the data were processed

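ChIP-seq regions of 2 biological replicates, 1 group by the labels, were used on build dm6. The authors deposited a relaxed list of 30000 regions per replicate and for the pooled replicates, and 3930 thresholded regions. Per the submitters' notes, every relaxed list was made with the same additional input file, taken here to be the control. No aligner or peak caller is named in those notes or the labels. The deposited signal (column 7) has no stated scale. The deposited −log10 q-value was 4.13 for every thresholded region and was used for no ranking. The fragment size range was 200 to 800 bp, per the labels.

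Genes and TSSs came from Ensembl release 115 and sequence from the RefSeq assembly, both Release 6 and hence dm6. Only protein-coding genes of the main arms were counted. The start nearest to a summit was sought among all annotated genes, noncoding ones included, so a noncoding start could take a summit from a protein-coding gene. Regions of different lists were matched by the nearest summit within 200 bp. dm3 lists were not used here. The gene calls were checked on simulated summits, where 200 of 200 genes were recovered. Python 3.11.15 was used.

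The members, gene lists and sequences were chosen with earlier results of these data known. All members are named, with up to 4 of the strongest bound genes of each related list and every other gene with a start within 1 kb of a thresholded member summit. *emb*, *Ranbp21* and the unbound related genes were named after their values were seen. *Kap3*, a kinesin-associated protein, was taken off the importin list. Of the related symbols 46 matched directly, 4 by an older symbol and 2 did not match.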

Additional observations from a re-analysis of the deposited data

How the results depend on the processing

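The count of 13 bound members moved with the distance and with the regions that counted. It was 8 within 500 bp (20.4% of all genes) and 8 within 200 bp (16.2%), and 5 with the nearest TSS only (16.9%). It was 7 with the 1965 strongest thresholded regions (12.8%). Each of these calls was among the 13, as their settings can only remove genes. It was 16 within 2000 bp and 18 with the 7860 strongest pooled regions, against 27.8% and 37.9% of all genes. For symbols of Nup and a digit alone it was 12 of 21, against 23.3% of all genes. With the most upstream TSS only it was 13 (21.6% of all genes). Leaving out a replicate gave 12 to 13, against 23.3% of all genes without replicate 1 and 22.9% without replicate 2. Replicate 2 alone called 11 of the 13 and added *Nup358* and *Nup62*, without *Nup44A* and *Nup35*. Replicate 1 alone called 12, without *Nup93-1*. A single replicate has only a relaxed list, so these calls had no IDR step behind them. In replicate 1 *Nup107*, at rank 3869, was called and *Nup93-1*, at rank 4244, was not. Both *Nup160* and *Nup98-96* were called in all 10 settings run over the 26 genes, and 6 members in none (*Nup133*, *Nup43*, *Nup188*, *mbo*, *Gle1* and *Nup153*). The median signal of 151 became 221 within 500 bp, over the 8 genes left, and 174 for Nup symbols alone. It became 116 with the nearest TSS only, over the 5 genes left. The count of members with a relaxed region, 24, was 24 to 25 in the single replicates, alternatives chosen after seeing the data. No paired analysis was possible because the samples form 1 group. Read depth limits all calls to an unknown degree.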
